A study of Rattus norvegicus with 9 samples.

Results

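Transcripts of 8 transcription factors that steer mesenchymal cells towards bone were followed in rat marrow stromal cells held in hydrogels that differed in how quickly they released stress. The factors were Runx2, Sp7, Dlx5, Dlx3, Msx1, Msx2, Twist1 and Runx1. They were chosen by name, and all 8 were present among the 33539 genes of the deposited table. All 8 also passed the filter on low counts that left 14406 genes for testing.

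Bone formation starts when a stromal precursor switches on Runx2, a runt-domain factor without which no osteoblasts form, and then Sp7 (osterix), a zinc finger factor that acts after it. The homeodomain factors Dlx5, Dlx3, Msx1 and Msx2 respond to bone morphogenetic proteins (BMPs) and bind regulatory regions of bone genes. Twist1, a basic helix-loop-helix (bHLH) factor, binds RUNX2 protein and holds it in check in the mouse. Runx1, the relative of Runx2 best known for blood cell formation, is also made in mesenchymal and cartilage precursors.

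The cells were mesenchymal stem cells (MSCs) from rat bone marrow, kept for 48 hours in a gel that the labels call SA hydrogel, with fast, medium or slow relaxation of stress. The groups are called Fast, Medium and Slow and hold 3 samples each, 9 in all. All groups shared a low-glucose medium with serum and antibiotics, no gel-free group was among the samples, and the strain, sex and age of the rats are not given in the sources used here. Labels do not tell whether the 3 samples had separate animals or cultures as their source. The p-values thus set differences between gels against the spread of these samples alone, and that spread may be technical. Libraries of polyadenylated RNA held between 14128980 and 15779328 counts each.

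All 16 stromal markers looked for (among them Thy1, Cd44 and Pdgfra) were counted in every group. Their summed level, in CPM (counts scaled to the size of each library), was 43650 to 47034 for Fast, 36662 to 37199 for Medium and 35025 to 35656 for Slow. Col1a1, a large part of this sum, had means of 16379 CPM for Fast, 11375 for Medium and 9311 for Slow. Nt5e went the other way, with means of 61.7 CPM for Fast, 146 for Medium and 193 for Slow. Of the 16, 6 rose and 7 fell in Fast against Slow, and 7 rose and 6 fell with library size as the only scaling or with the upper quartile. Myeloid transcripts were present as well. The 20 myeloid markers summed to 3065 to 3221 CPM for Fast, 2146 to 2159 for Medium and 1834 to 1915 for Slow, with Marco at 0 throughout Fast and Cx3cr1 at 0 throughout Medium. Of the 17 myeloid markers that could be tested, 13 rose and 2 fell between Slow and Fast (all tested genes: 42.9% called). Between Slow and Medium 9 rose and 0 fell (10.3%), and between Medium and Fast 12 rose and 1 fell (33.0%). Ptprc, which white blood cells share, did not pass the test between Fast and Slow (log2 difference 0.012, edgeR adjusted p = 0.904). Osteoclast markers summed to 432 to 449 CPM for Fast, 454 to 461 for Medium and 423 to 449 for Slow, with Dcstamp at 0 in all libraries. Of 6 osteoclast markers tested, 2 rose (Ctsk and Atp6v0d2) and 1 fell (Itgb3) between Slow and Fast, and the calls of Ctsk and Atp6v0d2 were lost without Slow replicate 2 (edgeR adjusted p = 0.0700 and 0.0549), that of Ctsk also without Fast replicate 2 or Slow replicate 3. Lymphocyte and neutrophil markers summed to at most 2.46 CPM, with Cd3g, Cd79b and Ms4a1 at 0 throughout, and the 1 that was tested, S100a8, was higher in Fast than in Slow. Endothelial markers summed to at most 43.8 CPM, and 1 of the 4 tested (Esam) was higher in Fast than in Slow. Erythroid markers summed to at most 3.49 CPM, with Hbb and Hba1 at 0, and 1 of the 2 tested (Epor) was lower in Fast than in Slow, a call lost with DESeq2 (adjusted p = 0.0569), with library size as the only scaling (0.0561) and without Fast replicate 1 or 2, Medium replicate 2 or 3 or any Slow library. In bulk RNA, fewer cells of a type and less RNA per cell cannot be told apart. The part of other cell types in the values of the 8 factors was not tested.

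Promoter sequences of 5 of the 8 genes were available from RefSeq on build GRCr8, as 6 windows that run from 250 bases before to 50 bases after a start site. Sp7, Dlx5 and Dlx3 are named only. Runx2 has 2 windows, shown because it is the central factor of the group and its start sites differ in the motifs they hold. The upstream window (chr9:23664808-23665107, plus strand) has its start site 3780 bases inside the annotated gene, and the downstream window (chr9:23742990-23743289, plus strand) 81962 bases inside it. Runx1 (chr11:45421276-45421575, minus strand) and Twist1 (chr6:56402059-56402358, plus strand) are shown because both fell in Fast gels. The start site of the Runx1 window lies 138975 bases inside the annotated gene, and that of Twist1 0 bases inside it. Capitals mark the RUNX motif in Runx2 (TGTGGT on either strand), of which the downstream window holds 0, the E-box bound by bHLH factors in Runx1 (CANNTG), and the GC box bound by SP factors in Twist1 (GGGCGG on either strand).
Runx2 upstream: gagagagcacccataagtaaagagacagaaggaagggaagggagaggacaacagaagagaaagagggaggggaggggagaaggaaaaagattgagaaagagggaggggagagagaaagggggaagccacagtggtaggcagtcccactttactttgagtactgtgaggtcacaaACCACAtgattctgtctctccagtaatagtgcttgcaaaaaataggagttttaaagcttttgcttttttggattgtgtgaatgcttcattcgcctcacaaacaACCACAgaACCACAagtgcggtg
Runx2 downstream: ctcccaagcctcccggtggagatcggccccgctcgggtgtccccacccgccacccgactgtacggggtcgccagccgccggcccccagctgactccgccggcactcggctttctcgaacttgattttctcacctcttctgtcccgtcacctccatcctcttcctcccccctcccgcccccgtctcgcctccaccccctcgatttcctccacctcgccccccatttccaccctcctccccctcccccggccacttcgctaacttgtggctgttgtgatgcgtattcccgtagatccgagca
Runx1: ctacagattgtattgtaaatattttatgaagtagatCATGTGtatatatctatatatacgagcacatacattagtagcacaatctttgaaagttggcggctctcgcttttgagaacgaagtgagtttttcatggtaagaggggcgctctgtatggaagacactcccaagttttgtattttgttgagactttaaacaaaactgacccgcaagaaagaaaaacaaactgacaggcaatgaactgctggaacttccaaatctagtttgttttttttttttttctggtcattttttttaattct
Twist1: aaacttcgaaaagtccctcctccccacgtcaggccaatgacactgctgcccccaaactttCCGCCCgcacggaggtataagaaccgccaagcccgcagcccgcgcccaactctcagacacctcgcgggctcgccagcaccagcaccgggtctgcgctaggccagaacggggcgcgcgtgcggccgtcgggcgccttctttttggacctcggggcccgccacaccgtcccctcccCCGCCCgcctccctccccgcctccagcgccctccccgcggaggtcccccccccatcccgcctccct

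The upstream Runx2 window held 3 RUNX motifs, at bases -76, 28 and 36 from the start site, all read on the minus strand. Of all 33469 windows of this length in the RefSeq table, 17.3% held at least 1 RUNX motif and 0.209% held 3 or more. The other 5 windows held 0. E-boxes, found in 72.1% of all windows, occurred 2 times in the upstream Runx2 window, at bases -74 and 40 and each overlapping a RUNX motif, and 1 time in each of the downstream Runx2, Runx1 and Msx2 windows. GC boxes, found in 33.1% of all windows, occurred 2 times in Twist1 and 1 time in each of the downstream Runx2, Msx1 and Msx2 windows. The homeodomain motif TAATTG, read on either strand and found in 8.2% of windows, occurred in 0 of the 6. A match is a run of letters and not a measured binding site.

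Per length, as FPKM (the authors' deposited values), the 8 factors spanned a wide range of levels. Twist1 was the most abundant of them in every group, and Msx2 the least. Over the 9 libraries the mean FPKM was 38.1 for Twist1, 26.8 for Runx1, 24.6 for Sp7, 16.5 for Runx2, 5.74 for Msx1, 4.74 for Dlx5, 1.97 for Dlx3 and 0.863 for Msx2. Among the 1485 genes that the deposited table lists as transcription factors, Twist1 ranked 63, Runx1 99, Sp7 111 and Runx2 191, while Msx1 ranked 469, Dlx5 514, Dlx3 719 and Msx2 849. These places depend on the annotated gene lengths, 5641 bases for Runx2 and 1609 for Twist1. By counts alone Runx2 was the highest of the 8, with a mean of 1383 a library against 909 for Twist1.

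The order by FPKM was not the same in the 3 gels. In Slow it was Twist1, Runx1, Sp7, Runx2, Msx1, Dlx5, Dlx3 and Msx2, and the libraries of neighbours overlapped only for Dlx5 (2.37 ± 0.823 FPKM, SD, n = 3) and Dlx3 (1.56 ± 0.386). Medium had the order of Slow, with overlap of neighbours only for Runx1 (30.1 ± 1.44 FPKM) and Sp7 (27.5 ± 1.63). In Fast, Sp7 (24.1 ± 1.34 FPKM) stood above Runx1 (20.7 ± 0.632), and Dlx5 (8.24 ± 1.25) above Msx1 (6.40 ± 0.622), with no overlap between any neighbours.

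**Figure D1:**
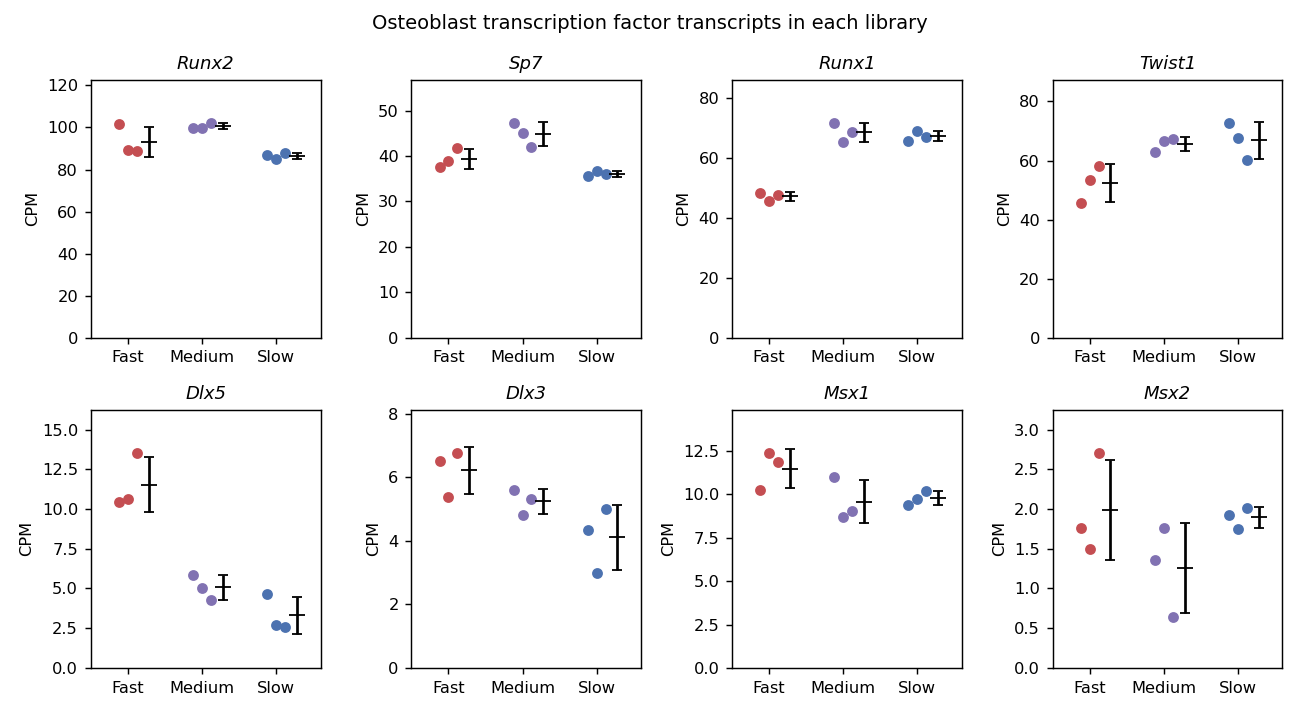
Level of each of the 8 factors in each library (CPM, with TMM factors), with points for the 3 libraries of each gel and a bar for mean ± SD. The highest Fast library of Runx1 is at 48.4 CPM, below all Medium and Slow libraries, Dlx5 is highest in Fast, and Runx2 and Sp7 have their highest means in Medium.

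Runx2 (ENSRNOG00000020193, chromosome 9 from 18564927 to 18773092 on the plus strand in the deposited table) was slightly higher in Medium than in Slow. The Fast libraries held 102, 89.5 and 88.8 CPM of it, the Medium libraries 99.7, 99.7 and 102, and the Slow libraries 86.8, 84.8 and 87.9. All Medium libraries were above all Slow libraries, and the Fast libraries overlapped with Medium while lying just above Slow. Runx2 rose in Medium over Slow by 0.22 ± 0.051 on the log2 scale (SE, edgeR adjusted p = 0.0134), or 1.16-fold. Fast over Slow was 0.11 (95% interval -0.00048 to 0.22, edgeR adjusted p = 0.102), and Fast over Medium -0.11 (-0.22 to 0.00080, edgeR adjusted p = 0.122). The rise in Medium was no longer past 0.05 without Medium replicate 3 (edgeR adjusted p = 0.0566), without Slow replicate 2 (0.0629) or with limma on log2(FPKM + 1) (0.0507). Without Fast replicate 1, Runx2 was lower in Fast than in Medium with a log2 difference of -0.17 (edgeR adjusted p = 0.00370).

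Sp7 (ENSRNOG00000014082, chromosome 7 from 143958858 to 143967484, minus strand) was also highest in Medium. The Fast libraries held 37.6, 38.8 and 41.8 CPM, the Medium libraries 47.3, 45.1 and 42.1, and the Slow libraries 35.5, 36.8 and 36.0. Every Medium library was above every Fast library and every Fast library above every Slow library, although the lowest Medium value and the highest Fast value lay close together. Sp7 rose in Medium over Slow by 0.31 ± 0.063 (edgeR adjusted p = 0.00483), or 1.24-fold. Fast was below Medium by a log2 difference of -0.19 ± 0.062 (edgeR adjusted p = 0.0325), a call that held in 10 of 19 alternatives. It was lost with DESeq2 (adjusted p = 0.0613), upper quartile factors (0.0959), library size as the only scaling (0.169) and only the 6 samples of the pair (0.0590). It was also lost without Fast replicate 1 (edgeR adjusted p = 0.0963) or 2 (0.0889) and without Medium replicate 1 (0.143) or 2 (0.0812). Fast over Slow was 0.13 (95% interval -0.0098 to 0.26, edgeR adjusted p = 0.126).

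Set against the midpoint of Fast and Slow, Medium was higher for Sp7 by 0.25 ± 0.054 (edgeR adjusted p = 0.00604), for Runx2 by 0.16 ± 0.044 (0.0245) and for Runx1 by 0.28 ± 0.044 (0.000406). These were 3 of the 8 factors, 3 higher and 0 lower, where 12.1% of all tested genes were called, 7.20% higher and 4.89% lower. For Runx1, Medium was not called against Slow (log2 difference 0.027, edgeR adjusted p = 0.817), and Fast was below both. The call of Runx2 held in 10 of 18 alternatives, with adjusted p-values of up to 0.109 (without Medium replicate 3). It was lost when any of the 3 Medium libraries, Fast replicate 2 or 3 or Slow replicate 2 was left out, with library size as the only scaling and with limma on log2(FPKM + 1). That of Sp7 was lost without Medium replicate 1 (edgeR adjusted p = 0.0567).

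Runx1 and Twist1 were lower in Fast gels than in both others. Runx1 (ENSRNOG00000001704, chromosome 11 from 32769165 to 33003021, minus strand) stood at 48.4, 45.7 and 47.5 CPM in the Fast libraries, 71.8, 65.2 and 68.6 in the Medium libraries and 65.7, 69.1 and 67.0 in the Slow libraries. The Fast libraries lay well below the other 6, which overlapped with each other. From Slow to Fast, Runx1 changed by -0.51 ± 0.052 on the log2 scale (edgeR adjusted p = 1.47e-06), to 0.702 of the level. From Medium to Fast it changed by -0.54 ± 0.052 (edgeR adjusted p = 1.26e-06). Medium over Slow was 0.027 (95% interval -0.081 to 0.13). Runx1 is also made in myeloid cells, whose summed markers were highest in Fast. The part of myeloid cells in the Runx1 values was not tested.

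Twist1 (ENSRNOG00000011101, chromosome 6 from 53401109 to 53403214, plus strand) varied more between libraries. It stood at 45.5, 53.5 and 58.2 CPM in the Fast libraries, 62.8, 66.7 and 67.1 in the Medium libraries and 72.8, 67.5 and 60.1 in the Slow libraries. The highest Fast library was just below the lowest Slow library, and Medium and Slow overlapped. From Slow to Fast, Twist1 changed by -0.35 ± 0.083 (edgeR adjusted p = 0.00340). From Medium to Fast it changed by -0.32 ± 0.083 (edgeR adjusted p = 0.00787). Medium over Slow was -0.027 (95% interval -0.20 to 0.15).

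Dlx5 (ENSRNOG00000010905, chromosome 4 from 32387741 to 32392007, minus strand), a homeodomain activator in osteoblasts, had the largest called change among the 8. Its counts were 160, 170 and 200 for Fast, 86, 74 and 60 for Medium and 65, 42 and 37 for Slow. The Fast libraries thus held 10.4, 10.6 and 13.5 CPM, the Medium libraries 5.87, 5.02 and 4.30 and the Slow libraries 4.63, 2.73 and 2.57. Fast was separate from both other gels, while Medium and Slow overlapped through Slow replicate 1. Dlx5 rose 3.49-fold in Fast over Slow, a log2 difference of 1.80 ± 0.21 (edgeR adjusted p = 7.90e-06), larger in size than that of 97.4% of tested genes. In Fast over Medium it rose by 1.18 ± 0.20 (edgeR adjusted p = 0.000398). Medium over Slow was 0.62 (95% interval 0.14 to 1.10, edgeR adjusted p = 0.102). That last difference passed 0.05 without Slow replicate 1, at 0.94 (edgeR adjusted p = 0.0132), and with no filter beyond 1 count (0.0322).

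Dlx3 (ENSRNOG00000004278, chromosome 10 from 82937971 to 82943348, plus strand), a homeodomain factor of bone, teeth and hair, had the same order of means with lower counts. Its counts were 100, 86 and 100 for Fast, 82, 71 and 74 for Medium and 61, 46 and 72 for Slow. In CPM all Fast libraries were above all Slow libraries, and Medium overlapped with both. Dlx3 rose in Fast over Slow by 0.60 ± 0.19 (edgeR adjusted p = 0.0224). The call was lost without Fast replicate 1 (edgeR adjusted p = 0.0554), Fast replicate 3 (0.0748) or Slow replicate 2 (0.104). Medium over Slow was 0.35 (95% interval -0.070 to 0.78) and Fast over Medium 0.25 (-0.16 to 0.66), neither past 0.05.

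The MSX genes, homeodomain factors that keep precursors dividing, did not pass the test in any pair. Msx1 (ENSRNOG00000006876, chromosome 14 from 77712240 to 77716059, plus strand) had 157, 198 and 175 counts for Fast, 161, 128 and 126 for Medium and 132, 150 and 147 for Slow. Its Fast libraries were all just above its Slow libraries in CPM, with a log2 difference of 0.23 (95% interval -0.031 to 0.49, edgeR adjusted p = 0.146). Fast over Medium was 0.26 (edgeR adjusted p = 0.119), and passed without Medium replicate 1 (0.0458) or with library size as the only scaling (0.0498). Msx2 (ENSRNOG00000018355, chromosome 17 from 11683862 to 11689527, plus strand) had the lowest counts of the 8, with 27, 24 and 40 for Fast, 20, 26 and 9 for Medium and 27, 27 and 29 for Slow. The groups overlapped in every pair. The 95% interval of Msx2 in Fast over Slow ran from -0.66 to 0.79 on the log2 scale, and the data do not tell apart differences within it.

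**Figure D2:**
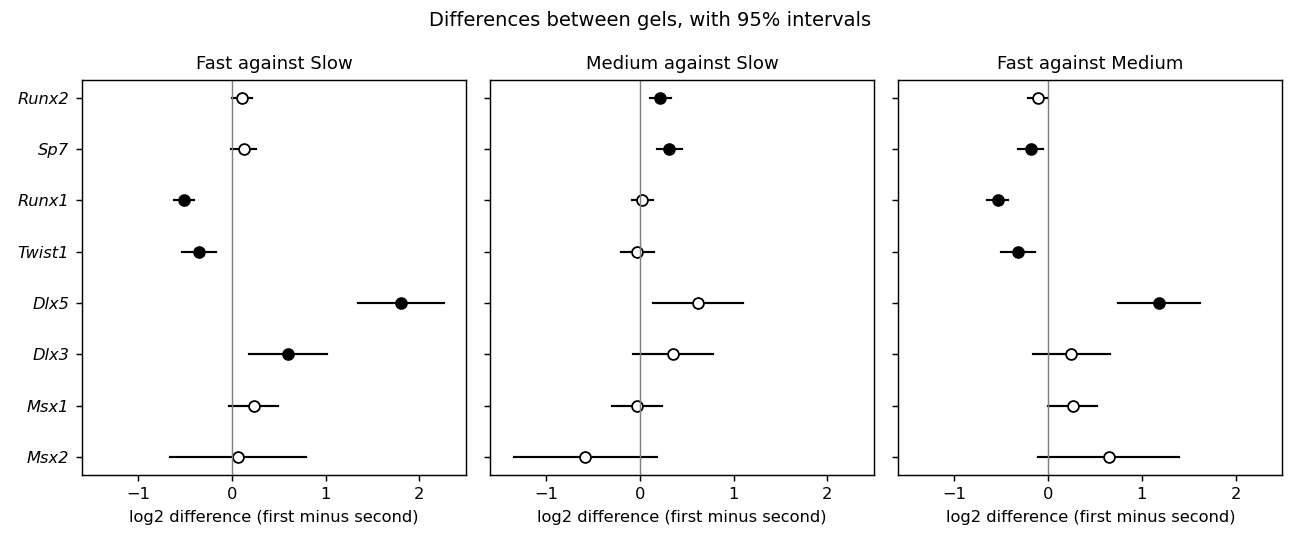
Log2 difference of each factor between gels (edgeR, all 9 libraries), with lines for 95% intervals and filled points for an adjusted p under 0.05. Dlx5 at 1.80 stands to the right in Fast over Slow, Runx1 and Twist1 lie left of 0 wherever Fast is compared, and Runx2 and Sp7 pass the test in Medium over Slow.

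In Fast over Slow 4 of the 8 factors were called, 2 higher (Dlx5 and Dlx3) and 2 lower (Runx1 and Twist1), where 42.9% of all tested genes were called, 21.2% higher and 21.7% lower. In 7 of the 8 the libraries of Fast and Slow did not overlap, as in 51.7% of all genes. A called change of at least 2-fold was found for 1 factor, Dlx5, and for 7.97% of genes. In Medium over Slow 2 of 8 were called, 2 higher and 0 lower, where 10.3% of genes were called, 4.74% higher and 5.57% lower. Libraries did not overlap for 2 of 8 and for 29.5% of genes, and 0 of 8 and 0.701% of genes were called at 2-fold. In Fast over Medium 4 of 8 were called, 1 higher and 3 lower, where 33.0% of genes were called, 15.6% higher and 17.3% lower. Libraries did not overlap for 4 of 8 and for 44.6% of genes, and 1 of 8 and 5.06% of genes were called at 2-fold. With the 3 gels tested together 5 of 8 were called (all but Dlx3, Msx1 and Msx2), where 42.2% of genes were. The median log2 difference over the 8 was 0.12 in Fast over Slow and 0.12 in Medium over Slow, and that of all tested genes 0.0078 and 0.0036. In Fast over Medium it was 0.069 over the 8 and 0.0092 over all. The pairs share libraries. With library size as the only scaling, 7 of the 8 and 44.1% of all tested genes were called in Fast over Slow, as Runx2 (0.20, edgeR adjusted p = 0.00640), Sp7 (0.21, 0.0142) and Msx1 (0.32, 0.0492) then passed. The upper quartile gave calls for Runx2 (edgeR adjusted p = 0.0181) and Sp7 (0.0324) there. These scalings moved the share of higher genes among all called in Fast over Slow from 49.4% to 65.1% (library size) and 59.7% (upper quartile), and in Fast over Medium from 47.5% to 63.9% and 57.9%. For the midpoint the share moved from 59.6% to 47.1% with library size.

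The authors' deposited table gave an adjusted p under 0.05 between Fast and Slow for 3 of the 8 (Runx1, Dlx5 and Twist1), and for 23.7% of all genes with an adjusted p there, and Dlx3 had 0.0695. Between Fast and Medium the authors' deposited table gave 3 of the 8 and 18.5% of all genes, with Sp7 at 0.115. Between Medium and Slow the authors' deposited table gave 2 of the 8, Runx2 (0.000103) and Sp7 (0.000420), and 8.92% of all genes.

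Ratios of related factors within a library do not depend on how libraries are scaled. The FPKM ratio of Runx2 to Runx1 was 0.842, 0.787 and 0.751 for Fast, 0.558, 0.614 and 0.599 for Medium and 0.531, 0.493 and 0.527 for Slow. The gels did not overlap, with Fast highest and Slow lowest. On the log2 scale Fast was above Slow by 0.62, Medium above Slow by 0.19 and Fast above Medium by 0.43 (exact two-sided permutation p = 0.1 for each, the smallest that 3 against 3 can give, adjusted p = 0.18 over 9 tests). The FPKM ratio of Dlx5 to Dlx3 was 3.02, 3.73 and 3.78 for Fast, 1.98, 1.97 and 1.53 for Medium and 2.01, 1.72 and 0.970 for Slow. Fast was separate from the other gels, by 1.22 over Slow and 0.95 over Medium on the log2 scale (exact permutation p = 0.1 and adjusted p = 0.18 for each), while Medium and Slow overlapped (0.28, exact permutation p = 0.7). The ratio of Msx2 to Msx1 overlapped in every pair, with exact permutation p-values of 0.3, 0.5 and 0.6.

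**Figure D3:**
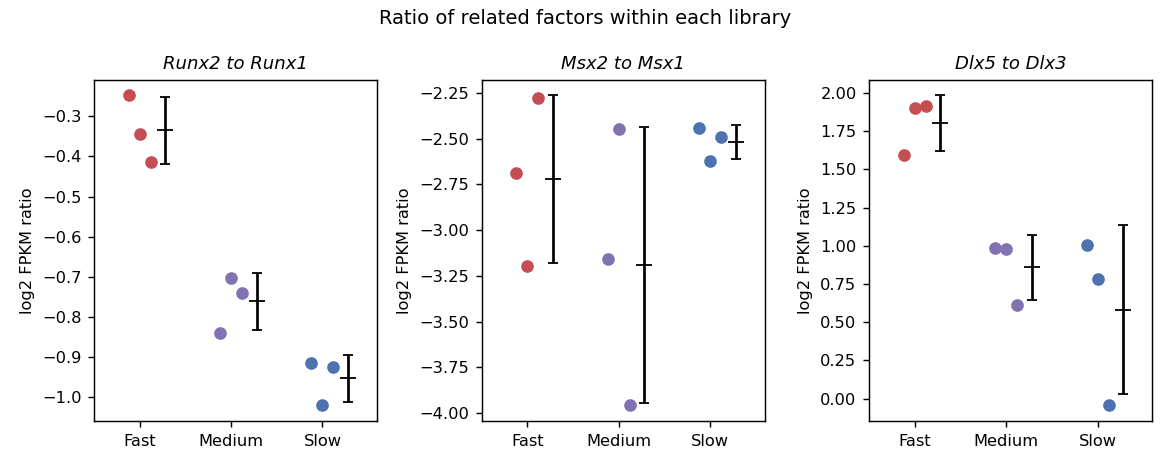
Log2 ratio of the FPKM of related factors in each library, with points for the 3 libraries of each gel and bars for mean ± SD. Runx2 to Runx1 has means of -0.34 in Fast, -0.76 in Medium and -0.95 in Slow without overlap, and all Fast libraries lie above the rest for Dlx5 to Dlx3.

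Among close relatives, Runx3, the remaining runt factor and best known from T cells, had 15.2 ± 1.37 CPM for Fast, 20.3 ± 0.717 for Medium and 18.7 ± 1.74 for Slow (SD, n = 3). It fell from Medium to Fast, by -0.41 ± 0.093 (edgeR adjusted p = 0.00319). Its fall from Slow to Fast (-0.30, edgeR adjusted p = 0.0185) was lost with library size as the only scaling (0.0817) and without Fast replicate 1 (0.0726) or Slow replicate 3 (0.0872). Twist2, the nearest relative of Twist1, changed by -0.43 ± 0.099 from Slow to Fast (edgeR adjusted p = 0.00262). Of the 24 relatives looked for, 13 could be tested. Between Slow and Fast 2 rose (Dlx4 and Sp2) and 5 fell (Runx3, Twist2, Sp1, Prrx1 and Prrx2), where 42.9% of all tested genes were called. With library size as the only scaling 2 of the relatives rose and 2 fell there. In Medium over Slow 0 rose and 1 (Prrx1) fell (all tested genes: 10.3% called), and in Fast over Medium 0 rose and 2 (Runx3 and Sp1) fell (33.0%).

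Other DLX genes were scarce, and they are named after their values were seen. Dlx6, which lies beside Dlx5 in the genome, had 2.36 ± 0.335 CPM for Fast and 1.57 ± 0.284 for Slow, a log2 difference of 0.58 ± 0.27 (edgeR adjusted p = 0.0930). Dlx4, with a mean of 9.11 counts a library, rose by 1.43 ± 0.52 (edgeR adjusted p = 0.0375). That call was lost with DESeq2 (0.0649), with limma-voom (0.0551) and without Fast replicate 1 or 3 or any Slow library (adjusted p up to 0.169). Dlx1 and Dlx2 had means of 3.11 and 6.22 counts and did not pass the filter.

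RUNX proteins bind DNA together with CBFB. Cbfb rose from 78.6 ± 1.09 CPM for Slow to 91.0 ± 0.853 for Fast (log2 0.21 ± 0.045, edgeR adjusted p = 0.00149). Wwtr1, which encodes the co-activator TAZ, changed by -0.55 from Slow to Fast (edgeR adjusted p = 1.64e-06) and the acetyltransferase gene Kat6b by 0.38 (0.00304). Of 12 tested partners, co-activators and stabilisers of RUNX proteins, 3 rose and 2 fell between Slow and Fast (all tested genes: 42.9% called). Between Slow and Medium 0 of the 12 were called (10.3%), and between Medium and Fast 2 rose and 3 fell (33.0%). With library size as the only scaling 4 rose and 2 fell, 1 rose and 0 fell, and 3 rose and 1 fell in these pairs, and the upper quartile gave 2 that rose and 1 that fell between Medium and Fast.

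Among repressors and degraders of RUNX proteins the changes went both ways. Runx1t1, a co-repressor gene known from leukaemia fusions, rose from 5.67 ± 1.07 CPM for Slow to 13.1 ± 0.530 for Fast (log2 1.21 ± 0.14, edgeR adjusted p = 5.47e-06). Of the Groucho-type co-repressors, Tle2 changed by 0.71 (edgeR adjusted p = 1.08e-06) and Tle1 by -0.81 (9.33e-06). Of 20 tested, 6 rose and 4 fell between Slow and Fast (all tested genes: 42.9% called). Between Slow and Medium 2 rose and 1 fell (10.3%), and between Medium and Fast 5 rose and 5 fell (33.0%). The median in Fast over Slow was -0.032, and 0.053 with library size as the only scaling, which gave 8 that rose and 3 that fell. Between Medium and Fast 5 rose and 2 fell with that scaling. The 2 rises between Slow and Medium, of Tle2 (edgeR adjusted p = 0.0238) and Runx1t1 (0.0280), were each lost when any Medium library was left out. That of Tle2 was also lost without Slow replicate 2 or 3. That of Runx1t1 was also lost without Slow replicate 1 or 2 and with limma on log2(FPKM + 1).

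TWIST proteins pair with E proteins, for which ID proteins compete. The E protein gene Tcf4 and the inhibitor gene Id4 rose in Fast over Slow by 0.48 (edgeR adjusted p = 0.000673) and 0.52 (7.48e-05). Id1 did not pass (-0.13, edgeR adjusted p = 0.0832). Id3 passed at -0.13 (edgeR adjusted p = 0.00830), a call lost with library size as the only scaling (0.306) and with the upper quartile (0.0996). Of 7 tested, 2 rose and 1 fell between Slow and Fast (all tested genes: 42.9% called). Between Slow and Medium 1 rose and 0 fell (10.3%), and between Medium and Fast 1 rose (Id4) and 2 fell (Id1 and Id3) (33.0%). With library size as the only scaling 2 rose and 0 fell both between Slow and Fast and between Medium and Fast, where the calls of Id1 (edgeR adjusted p = 0.130) and Id3 (0.0681) were lost. Between Medium and Fast, Id1 was also lost with the upper quartile (0.0697) and without Fast replicate 3 or Medium replicate 1 or 2. Id4 was lost there with DESeq2 (adjusted p = 0.0618) and without Fast replicate 2 or 3 or Medium replicate 1 or 3, and between Slow and Medium without Medium replicate 2 or 3 or any Slow library.

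BMPs act upstream of the DLX and MSX genes. Bmp6 had 4.49 ± 1.02 CPM for Fast, 8.94 ± 0.525 for Medium and 15.1 ± 2.73 for Slow, a log2 difference of Fast over Slow of -1.75 ± 0.17 (edgeR adjusted p = 1.17e-06). Bmp2 was lowest in Medium, with 14.0 ± 0.850 CPM against 20.6 ± 1.17 for Fast and 25.5 ± 0.626 for Slow (Medium over Slow -0.86, edgeR adjusted p = 3.63e-06). The antagonist gene Grem1 changed by -0.34 from Slow to Fast (edgeR adjusted p = 2.37e-08). Of 22 tested genes of the pathway 4 rose (Bmp4, Acvr2a, Smad6 and Nog) and 8 fell between Slow and Fast (all tested genes: 42.9% called). The median log2 difference of the 22 was -0.18, and -0.092 with library size as the only scaling and -0.12 with the upper quartile. Between Slow and Medium 2 rose and 5 fell (all tested genes: 10.3% called), and between Medium and Fast 4 rose and 7 fell (33.0%). The rise of Bmp4 (1.45, edgeR adjusted p = 0.0211) was lost without Fast replicate 2 (0.0768) or Slow replicate 3 (0.0766), and that of Nog without Fast replicate 2 or 3 or Slow replicate 2 (edgeR adjusted p = 0.0817, 0.0657 and 0.0810).

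Other osteoblast transcription factors also went both ways. Snai2, a zinc finger repressor of mesenchymal cells, had 59.8 ± 1.90 CPM for Fast, 14.9 ± 1.03 for Medium and 10.3 ± 0.842 for Slow (log2 Fast over Slow 2.54 ± 0.078, edgeR adjusted p = 2.34e-12). The AP-1 genes Fosl1 and Junb changed by -1.27 (edgeR adjusted p = 3.19e-11) and -0.80 (2.47e-08) from Slow to Fast, and Mef2c, a factor of muscle and bone, by -0.82 (1.13e-07). Of 29 tested, 10 rose and 12 fell between Slow and Fast (all tested genes: 42.9% called). Between Slow and Medium 2 rose and 4 fell (10.3%), and between Medium and Fast 9 rose and 16 fell (33.0%). Between Slow and Medium 4 rose and 3 fell with library size as the only scaling, and 3 rose and 3 fell with the upper quartile. Between Slow and Fast library size gave 11 that rose and 11 that fell. Among regulators of the cartilage, fat, tendon and muscle lineages 5 of 13 rose and 3 fell between Slow and Fast, 3 rose and 0 fell between Slow and Medium, and 6 rose and 4 fell between Medium and Fast. Zfp423, an early regulator of fat precursors, changed by 1.13 from Slow to Fast (edgeR adjusted p = 1.98e-06), Ebf1 by 0.41 (6.24e-06), Egr1 by -1.15 (2.49e-12) and Sox9, the master factor of cartilage, by -0.99 (3.18e-09).

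Of 24 tested genes listed as downstream of RUNX2 and SP7 in osteoblasts, 13 rose and 5 fell between Slow and Fast (median 0.47, all tested genes: 42.9% called). Between Slow and Medium 12 rose and 1 fell (median 0.30, all tested genes: 10.3% called). Between Medium and Fast 11 rose and 6 fell (median 0.0012, against 0.0092 over all tested genes, of which 33.0% were called). The mean was highest in Fast for 12 of the 24, in Medium for 10 and in Slow for 2. The list was chosen with earlier results of these data known, so its direction is a description. It also holds Fgfr1, Fgfr2, Fgfr3 and Fermt3, all among the 13 that rose between Slow and Fast. Whether the listed genes are targets of RUNX2 or SP7 in these cells was not tested. Ibsp, a mineral-binding matrix protein, changed by 2.80 from Slow to Fast (edgeR adjusted p = 2.05e-14), the phosphatase gene Alpl by 1.63 (3.95e-14), the collagenase gene Mmp13 by 1.46 (1.75e-12) and Spp1 (osteopontin) by -0.60 (7.49e-13). Runx2 and Sp7 themselves differed by 0.11 and 0.13 there, not past 0.05. The 5 that fell between Slow and Fast were Spp1, Dmp1, Enpp1, Tnfrsf11b and Vdr. Of the 10 highest in Medium, the late osteoblast genes Bglap (osteocalcin) and Mepe, and also Dmp1, are named after their values were seen. Bglap had 13.3 ± 0.840 CPM for Fast, 17.4 ± 1.07 for Medium and 10.2 ± 1.15 for Slow, and rose in Medium over Slow by 0.77 ± 0.10 (edgeR adjusted p = 0.000183). Mepe had 7.41 ± 0.616 CPM for Fast, 8.32 ± 0.979 for Medium and 3.15 ± 0.201 for Slow, with Fast over Medium at -0.17 (edgeR adjusted p = 0.409). Dmp1, with a mean of 16.4 counts a library, had 0.350 ± 0.231 CPM for Fast, 1.85 ± 0.454 for Medium and 1.19 ± 0.0655 for Slow. It changed by -1.74 ± 0.45 from Slow to Fast (edgeR adjusted p = 0.00575).

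**Figure D4:**
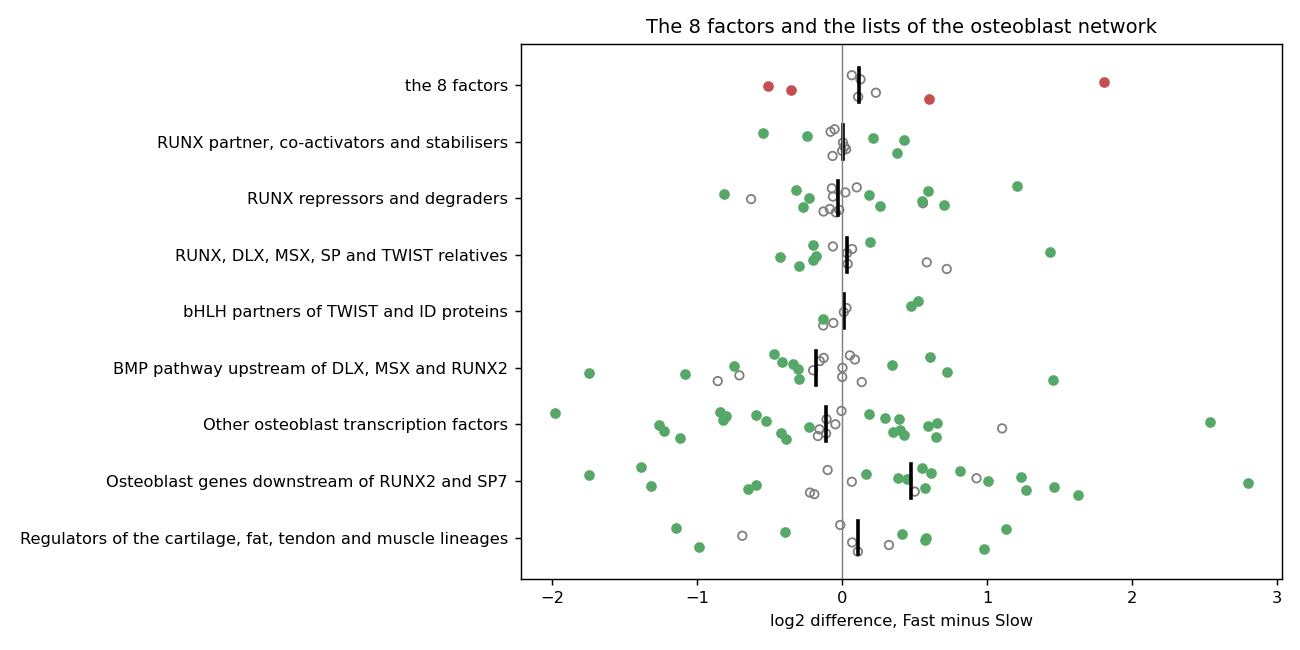
Log2 difference of Fast over Slow for the 8 factors and for the tested genes of the 8 lists around them, with filled points for an edgeR adjusted p under 0.05 and a line for each median. The median of genes listed as downstream of RUNX2 and SP7 lies at 0.47 and that of the 8 factors at 0.12.

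For each factor called with the 3 gels together, the genes of most similar pattern were sought by the Pearson correlation of log2 CPM over the 9 libraries, among 10412 genes. For Runx2 they were Fam198b (r = 0.953), Pkmyt1 (0.953) and Vmp1 (0.937). For Sp7 they were Adamtsl4 (r = 0.968), Slc27a1 (0.952) and Bcar3 (0.948). Runx1 was closest to Ecm1 (r = 0.993), Scn7a (0.992) and Megf10 (0.991), and Scn7a, a sodium channel gene, had means of 8.31 CPM for Fast, 35.0 for Medium and 33.5 for Slow. Twist1 was closest to Jtb (r = 0.961), Fam193b (0.961) and Sf1 (0.958). Dlx5 was closest to Hsd17b11 (r = 0.991), Ghr (0.987) and Hps1 (0.980), and Ghr, the growth hormone receptor gene, had means of 18.1 CPM for Fast, 7.90 for Medium and 5.40 for Slow. The points share libraries and gels, and the highest of many correlations over 9 points is a description of likeness.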

How the data were processed

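Polyadenylated RNA of 9 samples was profiled, 3 in each of the groups Fast, Medium and Slow, with groups taken from the sample labels. Per the file headers, the deposited table gives a read count for every gene in each sample, as the authors made it, and the authors' FPKM, which equalled the count over gene length and over a constant of 0.976 to 1.04 times the library total. For every pair of groups it also holds the authors' log2 fold change with its p-value, raw and adjusted. Its mean values per group were not used. Bowtie 0.12.9, Cufflinks 2.1.1 and HTSeq appear in the submitters' processing notes, without roles, beside the mouse build mm10. The identifiers are rat Ensembl identifiers, so the coordinates are those of the table and their build is not given in the sources used here, nor is the strand setting. A 5S rRNA gene overlaps the span of Runx2 in the table.

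Genes were filtered with filterByExpr (minimum count 10, smallest group 3), scaled with TMM factors (0.972 to 1.04) and tested by quasi-likelihood in edgeR 4.0.16 (R 4.3.3). The model held all 9 samples, with Benjamini-Hochberg adjustment over 14406 genes, and an adjusted p under 0.05 was called. The standard error is the log2 difference divided by the square root of the F statistic. The procedure was tested on simulated data. Pairs of replicates differed beyond counting noise (chi-square per degree of freedom 2.80 to 6.29 over 9 pairs), and all were kept. Ratios were tested with exact permutation tests. Alternatives were DESeq2 1.42.0, limma 3.58.1 (voom, and log2(FPKM + 1)), other scalings and filters, only the samples of a pair, a replicate block and each sample left out.

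The 8 members and the 14 gene lists (8 of the pathway and 6 of cell types, 235 of 241 entries found) were chosen with earlier results of these data known. Where a symbol had more than 1 row (2 genes), the row with most counts was used. Genes named from a list were up to 4 with the smallest adjusted p with the 3 groups together and a mean of at least 50 counts. The 3 genes of most similar pattern also needed a mean of at least 50 counts and a symbol that is no placeholder. Genes named beside these, to account for small counts, were chosen after their values were seen. Some genes that this rule names are not reported here.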

Additional observations from a re-analysis of the deposited data

How the results depend on the processing

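The calls of Runx1, Twist1 and Dlx5 in Fast over Slow and in Fast over Medium, and that of Sp7 in Medium over Slow, held in all 19 alternatives. The number of the 8 factors called in Fast over Slow was 4, and 7 with library size only, 6 with the upper quartile and 3 to 4 with a sample left out. Over all genes 6177 were called there, and 6348, 6187 and 5414 to 6067 in these settings. In Medium over Slow the number of factors was 2, and 1 with limma on log2(FPKM + 1) and 1 to 3 with a sample left out (all genes: 1485, and 1011 to 1905 with a sample left out). In Fast over Medium it was 4, and 3 to 4 with a sample left out (all genes: 4750, and 3920 to 4656). Against the midpoint it was 3, and 1 to 3 with a sample left out (all genes: 1741, and 1208 to 2003). It was 2 with library size only (all genes: 1823) and 4 with no filter beyond 1 count, where Twist1 passed (0.15, edgeR adjusted p = 0.0466). With the 3 groups together it was 5, and 5 to 6 with a sample left out (all genes: 6086, and 5287 to 5932). Dlx3 passed there without Slow replicate 3 (edgeR adjusted p = 0.0348), with the upper quartile (0.0402), library size only (0.0301) and the replicate block (0.0331). It also passed with limma-voom (adjusted p = 0.0441). The cause was not tested.

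Directions of the 8 factors reversed for 5 differences, none of them called, each with a sample left out. The log2 difference ranged from -0.22 to 0.23 for Msx2 in Fast over Slow (below 0 without Fast replicate 3). In Medium over Slow it ranged from -0.0073 to 0.061 for Runx1 (below 0 without Medium replicate 1), from -0.097 to 0.039 for Twist1 (above 0 without Medium replicate 1, at 0.0038, or Slow replicate 1) and from -0.14 to 0.033 for Msx1 (above 0 without Medium replicate 2 or 3, the latter at 0.0082). Against the midpoint it ranged from -0.041 to 0.14 for Dlx3 (below 0 without Slow replicate 2). The log2 ratio of Msx2 to Msx1 in Fast over Slow ranged from -0.42 to 0.034, and that of Dlx5 to Dlx3 in Medium over Slow from -0.038 to 0.49.

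Deviations of samples with the same replicate number correlated at -0.032 to 0.046, and those of samples with different numbers at -0.065 to 0.048. With 3 samples a group, these values cannot tell whether the samples were paired. With the replicate block 6111, 1397 and 4643 genes were called in Fast over Slow, Medium over Slow and Fast over Medium, against 6177, 1485 and 4750. The block gave 4, 2 and 3 of the 8 factors there, and Sp7 in Fast over Medium had an adjusted p of 0.0518 (edgeR). Of the 8 factors, Msx2 had the fewest counts and the widest 95% intervals.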
